A study of Mus musculus with 10 samples.

Results

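The nuclear genes for subunits of the mitochondrial respiratory chain and ATP synthase were followed in cerebral cortex RNA from mice labelled BrapcKO, a conditional knockout of Brap, and from their controls. Members were taken by symbol: genes named Ndufa, Ndufb, Ndufc, Ndufs or Ndufv with a number, Sdha to Sdhd, and the Uqcr, Cox4 to Cox8 and Atp5 series. The table of 14276 genes held 86 of them, and 80 encode subunits: 35 of complex I, 4 of complex II, 8 of complex III, 17 of complex IV and 16 of complex V. The other 6 matched by name but are not subunits: the complex II assembly factors Sdhaf1, Sdhaf2, Sdhaf3 and Sdhaf4, coupling factor B (Atp5s) and the supercomplex factor Cox7a2l. A further 15 annotated genes with a matching name had no row in the table, of which 12 were pseudogenes or non-coding and 3 were protein-coding entries (Cox8b, Cox8c and a second entry for Atp5o).

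All 10 libraries came from C57BL/6 mice aged 3 months, with 5 labelled control and 5 labelled BrapcKO. By genotype, controls were flox/wt without Cre (Cre-, 3 libraries) or flox/flox Cre- (2 libraries), while BrapcKO libraries were flox/ko with Cre (Cre+, 3 libraries) or flox/flox Cre+ (2 libraries), so Cre and loss of Brap cannot be told apart. Neither the promoter that drives Cre nor the exons deleted is named in the labels. The labels also do not tie libraries to separate animals, and p-values therefore measure only the spread between these libraries, which may be technical. Each title contains B1 or B2, called the title code here, which the labels leave unexplained. B1 held 2 control and 4 BrapcKO libraries and B2 held 3 control libraries and 1 BrapcKO library, so the code and the group overlap in part.

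Oxidative phosphorylation passes electrons from NADH through complex I, or from succinate through complex II, to ubiquinone, on to complex III, cytochrome c and complex IV, where oxygen is reduced. Complexes I, III and IV pump protons, and complex V (ATP synthase) uses the gradient to make ATP, on which neuronal signalling depends heavily. All subunits of complex II and most of the other complexes are encoded in the nucleus, and the remainder by mitochondrial DNA.

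The total count was 17188901 to 20955211 in B1 libraries and 26356508 to 28991874 in B2 libraries, and no member had fewer than 4 counts in any library. Brap itself was at 76.7 to 98.6 CPM (the count scaled to sequencing depth, with edgeR's TMM factors, as all CPM here) in control libraries and 89.0 to 110 CPM in BrapcKO libraries (log2 difference 0.23, adjusted p = 0.195), so its whole-gene count did not check the knockout label, and groups are named below as labelled. Summed over Ddx3y, Uty, Kdm5d and Eif2s3y, Y-linked reads were at 260 CPM (here without TMM factors) in 1 control library (23). They were at 266 to 287 CPM in 4 BrapcKO libraries (05, 06, 07 and 21), and at 0.254 CPM or less in all others. Male sex, as read from these genes, and group were therefore partly confounded. Of the marker lists, the 11 microglial genes summed to 374 to 400 CPM in control and 535 to 1489 CPM in BrapcKO libraries, with 4 of the 11 called higher. The top value was that of BrapcKO 05, and the other BrapcKO libraries were at 535 to 623 CPM. With the title code added 3 of the 11 were called higher. None was called with a score of the Y-linked genes added, with both added or in B1 alone. The 8 striatal markers summed to 533 to 1172 CPM in control and 925 to 1728 CPM in BrapcKO libraries, with 2 called higher, and 5 called higher once the title code was added. The 12 neuronal markers, at 10648 to 11512 and 10025 to 11111 CPM, had 1 called higher and 3 called lower. Of 10 astrocyte markers Gfap was called higher (log2 2.25 with group alone, 2.05 with the code), and of 6 parvalbumin interneuron markers Gad1, which is also among the neuronal ones, was called higher in both fits and Kcnc2 lower with the code (log2 -0.37). The 8 oligodendrocyte markers summed to 3415 to 4753 CPM in control and 2543 to 3492 CPM in BrapcKO libraries. None was called in either fit, but with group alone 7 of 8 were below 0 (median log2 -0.28). At an unadjusted p under 0.05 in edgeR there were 4 of 8, beside 18.5% of all genes. With the code and the Y-linked score both added, 1 of 8 was called lower, beside 2.24% of all genes in either direction. Of 3 measured muscle markers, 1 (Myh2, a myosin) was called lower. In bulk tissue, fewer cells of a type and less RNA per cell cannot be told apart, and the part of these differences in the values below was not tested.

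Summed over the 86 genes, the level was 6657, 6874, 9015, 8670 and 10060 CPM in control libraries 08, 09, 22, 23 and 24, and 7009, 6384, 7911, 7632 and 10364 CPM in BrapcKO libraries 04, 05, 06, 07 and 21. The groups overlapped fully, and the high libraries were the 4 with title code B2 (22, 23, 24 and 21), whose sums all exceeded those of the 6 B1 libraries. The mean was 8255 ± 1455 CPM (SD, n = 5) in control and 7860 ± 1519 CPM (SD, n = 5) in BrapcKO libraries, but 7078 ± 584 CPM (SD, n = 6) in B1 and 9528 ± 813 CPM (SD, n = 4) in B2. The median deviation of a complex's genes from their own means over the 10 libraries put the B2 libraries on top in complexes I, III, IV and V. In complex II the codes overlapped: BrapcKO library 06 of B1 had a median deviation of 0.09 and control library 23 of B2 one of -0.01. Complex IV showed the widest separation in summed level, at 1025 to 1213 CPM over B1 and 1661 to 2091 CPM over B2.

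**Figure D1:**
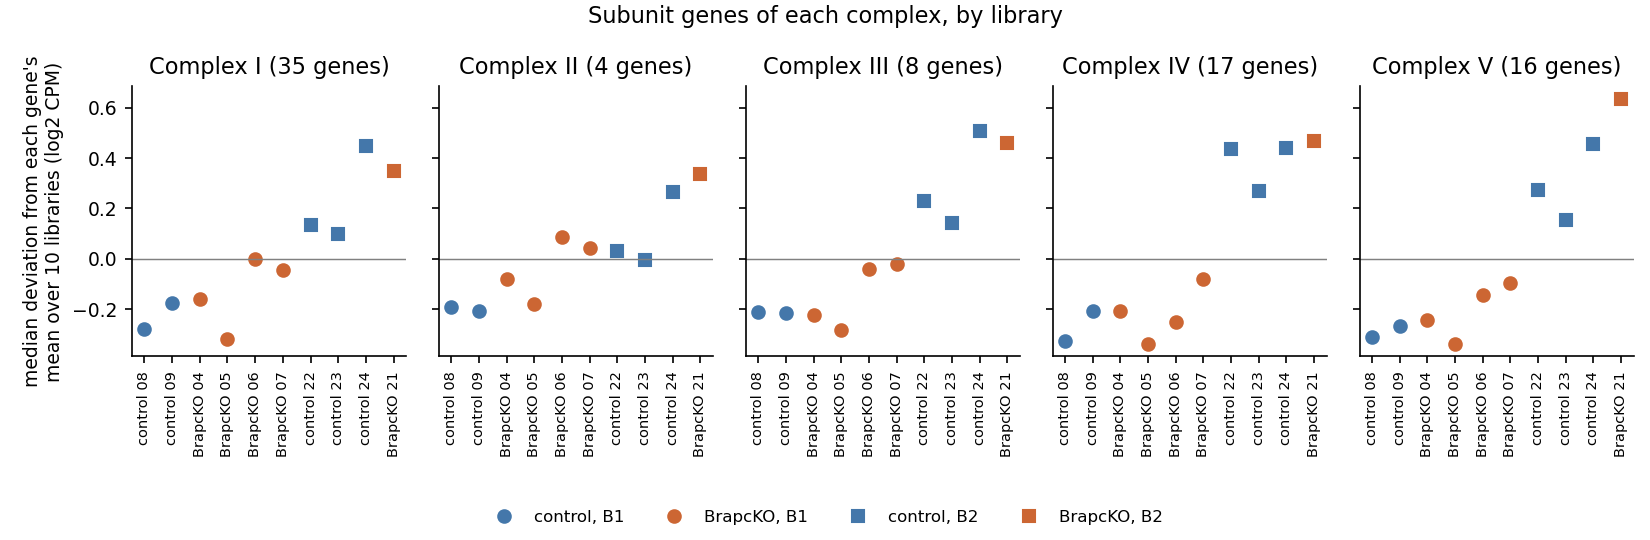
Median deviation of each complex's genes from their own mean over the 10 libraries (vertical axis, log2 CPM) for each library (horizontal axis), with circles for B1, squares for B2, blue for control and orange for BrapcKO. The 4 B2 libraries lie above all 6 B1 libraries in complexes I, III, IV and V, and the groups overlap in every complex.

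With group as the only term, none of the 86 genes was called higher or lower in BrapcKO libraries (edgeR quasi-likelihood test, adjusted p under 0.05), whereas 4.32% of all genes were called. At an unadjusted p under 0.05 there were 3 of 86 (Sdhd and Sdhaf2 higher, Sdhaf3 lower), beside 18.5% of all genes. The lowest adjusted p was 0.0952, for Sdhaf3. limma-voom called none either, and DESeq2 called 1, Sdhaf2 (log2 0.22, adjusted p = 0.0406), which was also the single gene of the 86 whose 5 BrapcKO libraries lay apart from its 5 controls (37.2 to 43.3 against 31.8 to 35.9 CPM, for an assembly factor that helps attach the flavin to Sdha). Across all genes, 6.82% had groups that did not overlap. The log2 differences ran from -1.23 (Atp5g2) to 0.48 (Cox7a1), with 65 of 86 below 0 and a median of -0.11, beside 0.00 over all genes. That median was -0.22 without BrapcKO 21 and -0.0005 without control 24.

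Entering the title code as a term moved the differences upward. The coefficient for group was higher than without the code in 83 of 86 genes, beside 47.4% of all genes, and 51 of 86 changed sign, beside 21.3% of all genes. With the code 72 of 86 were above 0, with a median of 0.12 beside 0.01 over all genes. In that fit 3 of 86 genes were called, 2 higher (Ndufb6 and Cox5b) and 1 lower (Sdhaf3), where 8.07% of all genes were called, so the share of members called was below the background. The medians by complex went from -0.12 to 0.12 for complex I, 0.05 to 0.20 for complex II, -0.07 to 0.11 for complex III, -0.19 to 0.09 for complex IV and -0.09 to 0.16 for complex V. When a score of Y-linked genes was added beside the title code, no member was called (2.24% of all genes were); at an unadjusted p under 0.05 there were 8 of 86 members, beside 14.9% of all genes, and the median was 0.15. With the B1 libraries alone (2 control, 4 BrapcKO) no member was called either (2.91% of all genes were), and 5 of 86 had an unadjusted p under 0.05, beside 17.8% of all genes. The median in B1 was 0.09.

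**Figure D2:**
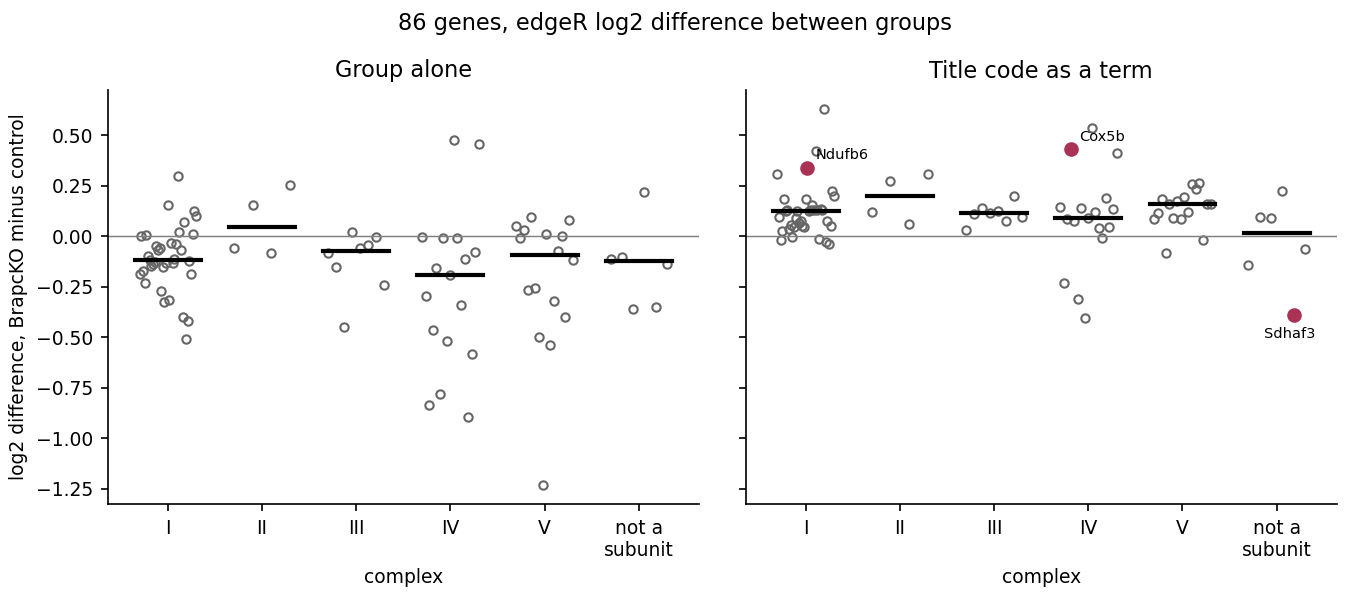
Log2 difference of each gene, BrapcKO minus control (vertical axis), by complex (horizontal axis), from the fit with group alone (left) and after adding the title code (right). Filled points are genes with an adjusted p under 0.05 and black bars are medians; no point is filled on the left, and Ndufb6, Cox5b and Sdhaf3 are filled on the right.

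Ndufb6, an accessory subunit of the membrane arm of complex I (ENSMUSG00000071014.10, GRCm38 chromosome 4, 40270591 to 40279421, minus strand), was at 13.6 and 13.3 CPM in control and 15.7, 14.7, 17.3 and 17.8 CPM in BrapcKO libraries of B1. In B2 it was at 41.4, 41.1 and 41.4 CPM in control libraries and 55.7 CPM in the BrapcKO library. Every BrapcKO library lay above every control library of its own code, while over the 10 libraries the groups overlapped widely. The log2 difference was -0.31 ± 0.50 (SE) with group alone (adjusted p = 0.779) and 0.34 ± 0.09 (SE) with the title code (adjusted p = 0.0303).

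Cox5b, a nuclear subunit of complex IV on its matrix side (ENSMUSG00000061518.11, GRCm38 chromosome 1, 36691449 to 36693681, plus strand), had the same layout. It was at 25.2 and 28.4 CPM in control and 35.9, 32.9, 44.7 and 39.9 CPM in BrapcKO libraries of B1, and at 112, 111 and 139 CPM in control libraries and 148 CPM in the BrapcKO library of B2. Again each BrapcKO value exceeded the controls of its code. The log2 difference was -0.46 ± 0.62 (SE) with group alone (adjusted p = 0.734) and 0.43 ± 0.11 (SE) with the title code (adjusted p = 0.0348).

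Sdhaf3, an assembly factor for the iron-sulfur subunit of complex II (ENSMUSG00000042505.6, GRCm38 chromosome 6, 6956004 to 7042979, plus strand), was at 16.9, 16.2, 15.3, 14.2 and 12.3 CPM in control libraries 08, 09, 22, 23 and 24, and at 11.4, 10.6, 12.2, 12.2 and 12.3 CPM in BrapcKO libraries 04, 05, 06, 07 and 21. The groups met only at the lowest control, library 24. Its log2 difference hardly moved between the fits, at -0.35 ± 0.11 (SE, adjusted p = 0.0952) with group alone and -0.39 ± 0.11 (SE, adjusted p = 0.0481) with the title code.

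These calls turned on single libraries. With the title code as a term, leaving out any 1 of 6 libraries (control 08, 09, 22 or 23, or BrapcKO 07 or 21) left no member called. Leaving out BrapcKO 06 left Ndufb6, and leaving out BrapcKO 04 left Cox5b and Ndufb6. Without BrapcKO 05 there were 5 calls (Cox5b, Ndufb6, Ndufc2, Ndufv2 and Sdhd, all higher), and without control 24 there were 6 (Atp5j, Cox5b, Ndufa1, Ndufb6 and Sdhb higher, Sdhaf3 lower). With group alone, leaving out control 24 led to a call for Sdhaf3 (log2 -0.41). BrapcKO 21 is the only BrapcKO library of B2, so without it the fit with the code rests on B1 for the group difference.

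**Figure D3:**
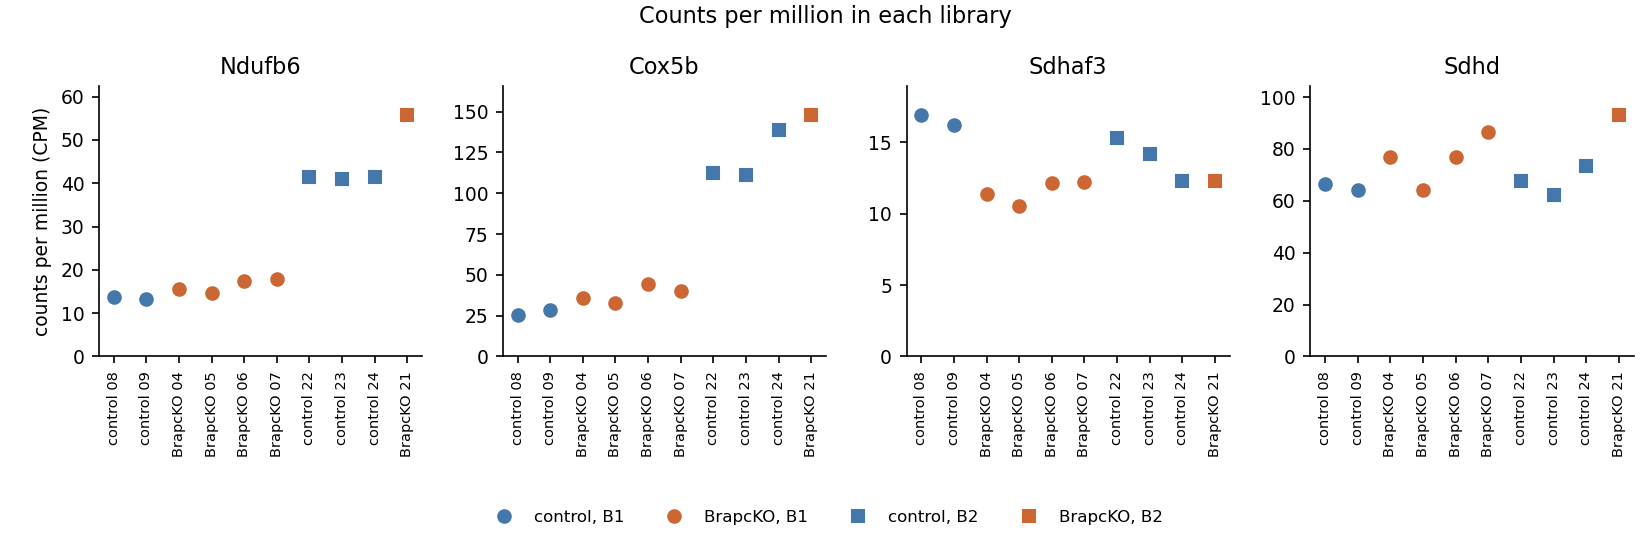
CPM (vertical axis) of Ndufb6, Cox5b, Sdhaf3 and Sdhd in each library (horizontal axis), with circles for B1, squares for B2, blue for control and orange for BrapcKO. Ndufb6 and Cox5b are several-fold higher in the 4 B2 libraries, and within each code their BrapcKO points lie above the control points; Sdhaf3 and Sdhd show no such step between codes.

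Within the B1 libraries, 12 of 86 genes had both controls below all 4 BrapcKO libraries, beside 14.1% of all genes. The opposite order, both controls above all 4 BrapcKO libraries, held for 1 of 86 (Sdhaf3), beside 15.5% of all genes. The ordering held in B1 and in B2 together for 7 of 86 genes (Ndufb6, Sdhb, Cox5b, Atp5g1, Atp5j, Cox7a2l and Sdhaf2), beside 7.43% of all genes. No member had every BrapcKO library below every control library in both codes, beside 8.89% of all genes.

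Complex I takes electrons from NADH in its matrix arm and pumps protons through its membrane arm. With the title code as a term, 1 of its 35 genes was called (Ndufb6), and the log2 differences ran from -0.04 (Ndufs8) to 0.63 (Ndufs5), 30 of 35 above 0. Ndufs5 had a low level, with 4 to 14 counts in each B1 library. The 16 matrix-arm genes had a median of 0.07 and the 19 membrane-arm genes one of 0.13, both without a test of the difference. Ndufc2, of the membrane arm, had the next lowest adjusted p of the genes named for this complex (0.128), with a log2 difference of 0.42 ± 0.16 (SE). Ndufb5 was at 0.19 ± 0.10 (SE, adjusted p = 0.290), and Ndufs6, a zinc-binding accessory subunit near the base of the matrix arm, at -0.03 ± 0.16 (SE). Ndufa6, the complex I gene with the highest level per kilobase among those named (155 CPM per kilobase of transcript), was at 0.05 ± 0.10 (SE).

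Complex II oxidises succinate and is also an enzyme of the tricarboxylic acid cycle. None of its 4 genes was called in either fit. Sdhd, a membrane anchor that helps bind ubiquinone, was at 66.5, 64.0, 67.6, 62.1 and 73.6 CPM in control libraries and 77.0, 64.3, 76.9, 86.5 and 93.0 CPM in BrapcKO libraries. The ranges overlapped because BrapcKO 05 lay among the controls. Its log2 difference was 0.25 ± 0.10 (SE, adjusted p = 0.202) with group alone and 0.31 ± 0.10 (SE, adjusted p = 0.0727) with the title code, and DESeq2 with the title code called it (adjusted p = 0.0322). Sdhb, the iron-sulfur subunit that Sdhaf3 serves, was at 0.27 ± 0.11 (SE, adjusted p = 0.177) with the title code, the opposite sign to Sdhaf3. Sdha, the catalytic flavoprotein, was at 0.12 ± 0.08 (SE) and Sdhc, the other anchor, at 0.06 ± 0.08 (SE).

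Complex III passes electrons from ubiquinol to cytochrome c. None of its 8 genes was called, and with the title code the 8 log2 differences lay between 0.03 (Uqcr10) and 0.20 (Uqcrh). Uqcrh, the hinge subunit that contacts cytochrome c1 and the most abundant of the 4 named here per kilobase (218 CPM per kilobase), was at 0.20 ± 0.09 (SE, adjusted p = 0.204). The small subunits Uqcrq, Uqcr11 and Uqcrb were at 0.09, 0.11 and 0.14. Uqcrb was at 9.72 to 16.1 CPM over the 6 B1 libraries and 39.8 to 72.0 CPM over the 4 B2 libraries, and its difference with group alone was -0.45 ± 0.65 (SE). The ranges of the codes did not overlap.

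Complex IV reduces oxygen, with a catalytic core encoded by mitochondrial DNA and nuclear subunits around it. Cox5b was the 1 gene of 17 called, and 13 of 17 were above 0 with the title code. Cox4i1, the broadly expressed form of subunit 4, which had the highest level per kilobase of the complex (453 CPM per kilobase), was at 0.15 ± 0.10 (SE, adjusted p = 0.441). The lowest and highest values belonged to genes of low level: Cox6b2 at -0.40 ± 0.31 (SE) and Cox7a1 at 0.54 ± 0.25 (SE), neither called.

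Complex V makes ATP in its F1 part, driven by rotation of a ring of c subunits in its membrane part. None of its 16 genes was called by edgeR. With the title code the 5 F1 genes had a median of 0.11 and the 11 genes of the membrane part and stalks one of 0.16. Atp5b, the catalytic beta subunit, was the most abundant of all 86 genes per kilobase (525 CPM per kilobase) and was at 0.11 ± 0.09 (SE, adjusted p = 0.497). Atp5d, the delta subunit of the central stalk, was at -0.08 ± 0.14 (SE), and Atp5j, coupling factor 6, at 0.26 ± 0.08 (SE, adjusted p = 0.0574), a gene that DESeq2 with the title code called (adjusted p = 0.0151).

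The title code separated these genes far more than the group did. With group in the model, 57 of 86 genes were called higher in B2 and none lower, beside 13.4% higher and 11.8% lower over all genes. At an unadjusted p under 0.05 there were 65 of 86, all higher, beside 37.0% of all genes in either direction. The median log2 difference was 0.44, against -0.02 over all genes. By complex, 23 of 35, 2 of 4, 6 of 8, 11 of 17 and 13 of 16 subunit genes of complexes I to V were called higher in B2, as were 2 of the 6 genes that are not subunits. Other lists, described below, differed in their share called higher in B2, beside the 13.4% of all genes. With none lower, it was 10 of 17 (58.8%) for glycolysis, 6 of 18 (33.3%) for the tricarboxylic acid cycle and 5 of 6 (83.3%) for carriers and porins. Coenzyme Q synthesis, at 2 of 13 (15.4%) and none lower, was near the share of all genes. Assembly factors had 4 of 18 higher for complex I, 0 of 6 for complexes II and III and 1 of 3 for complex V. For complex IV they had 7 of 20 higher and 1 lower. Of 21 regulators of mitochondrial gene expression, 1 was called higher (4.76%) and 4 lower. In the control libraries alone (2 of B1, 3 of B2) 38 of 86 were called higher and none lower, beside 9.11% higher over all genes. All 4 B2 libraries lay above all 6 B1 libraries for 46 of 86 genes, beside 10.6% of all genes. Some marker sums also differed by code: the 6 endothelial genes at 186 to 282 CPM in B1 and 107 to 170 CPM in B2, the 8 pericyte and smooth muscle genes at 214 to 266 and 127 to 189 CPM, and the 10 astrocyte genes at 5312 to 8319 and 4415 to 5260 CPM. The sums of the other marker lists overlapped between codes. By gene, 2 of 6 endothelial, 4 of 8 pericyte and smooth muscle and 1 of 10 astrocyte markers were called lower in B2, beside 11.8% of all genes. Of these lists, the pericyte and smooth muscle one also had 1 gene called higher. The part of these markers, and of the higher depth of B2, in the result was not tested.

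The 6 genes with the widest gap between codes were picked out after their values were seen. Cox7c, a small subunit of complex IV, was at 2.70, 2.98, 2.54, 3.20, 2.55 and 1.71 CPM in B1 libraries 08, 09, 04, 05, 06 and 07 and at 46.4, 46.9, 44.9 and 66.7 CPM in B2 libraries 22, 23, 24 and 21, a fitted 20.5-fold difference (log2 4.36 ± 0.16, SE, adjusted p = 4.2e-10). No B1 library came near any B2 library. Atp5g2, a c subunit gene of ATP synthase, was at 0.97 ± 0.32 CPM (SD, n = 6) in B1 and 10.9 ± 1.74 CPM (SD, n = 4) in B2. Ndufs5 (complex I, 7.12-fold), Cox5a (complex IV, 5.70-fold), Cox5b (4.22-fold) and Uqcrb (complex III, 4.02-fold) followed. The Ndufs5 value rests on 4 to 14 counts in each B1 library. At the other end, Ndufb5 (log2 0.07), Atp5a1 (0.09) and Ndufv1 (0.09) had nearly the same level in both codes. Subunits of 1 complex thus differed widely in the gap between codes, in complex IV from log2 -0.13 (Ndufa4l2) to 4.36 (Cox7c).

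Many of these genes have processed pseudogenes, copies of the mRNA inserted elsewhere in the genome. For each gene the share of 50-base words of its longest coding transcript that also occur in an annotated pseudogene transcript was counted. Pseudogenes with a row of their own in the count table were left out of this search. Across the 86 genes this share and the difference between codes had a Spearman correlation of 0.57, and of 0.59 with 30-base words, while transcript length gave -0.26; the genes share the same 10 libraries and are not independent. Atp5g2 had 87.4% of its words in the pseudogenes searched, Atp5l 68.5%, Atp5h 46.6%, Uqcrb 43.2%, Ndufs5 31.1% and Cox7c 27.9%. All 13 members with a share above 10 and up to 50% and both members above 50% were called higher in B2, as were 15 of 18 with a share above 0 and up to 10% and 27 of 53 with none. Over all genes the shares called higher in B2 were 69.7% (above 10 and up to 50%) and 92.9% (above 50%). They were 16.8% (above 0 and up to 10%) and 9.16% (none). Members with no such word were called at 50.9%, but were not matched to all genes for transcript length. Of all genes with transcripts under 1000 bases, with or without such words, 424 of 994 (42.7%) were called higher in B2. Among members it was 40 of 57 (70.2%) under 1000 bases and 17 of 29 (58.6%) at 1000 bases or more. The part of transcript length in these shares was not tested. Over all genes the median log2 difference between codes was -0.04 with no such words, 0.01 up to 10%, 0.69 up to 50% and 2.34 above 50%. Cox5b and Ndufb6 had no 50-base or 30-base word in the pseudogenes searched and were 4.22-fold and 3.20-fold higher in B2. Cox8a, with no 50-base word, was 2.77-fold higher. The labels do not say how reads with several matches were counted, and the part of pseudogenes in these values was not tested.

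**Figure D4:**
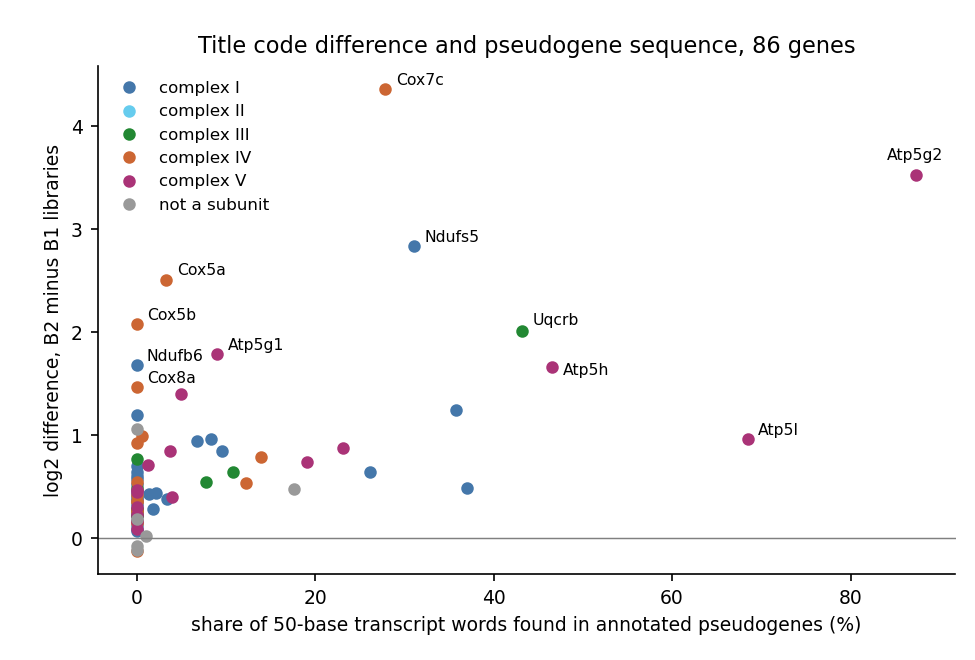
Log2 difference between B2 and B1 libraries with group in the model (vertical axis) against the share of 50-base transcript words found in annotated pseudogenes (horizontal axis, percent), 1 point per gene, coloured by complex. Pseudogenes with a row of their own in the count table are left out of the share. Every gene with a share above 10% lies above 0, and the genes at 0% spread from just below 0 to 2.08 (Cox5b).

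The genotypes were also compared in pairs, in a fit with 4 genotype groups. Between flox/flox Cre+ (05 and 06, both B1) and flox/flox Cre- (09 of B1, 24 of B2) the median was -0.32, and no member was called (0.0771% of all genes were). At an unadjusted p under 0.05 there were 2 of 86 members, beside 10% of all genes. Between flox/ko Cre+ (04 and 07 of B1, 21 of B2) and flox/wt Cre- (08 of B1, 22 and 23 of B2) the median was 0.01, and again no member was called (0.806% of all genes were). Here 3 of 86 members had an unadjusted p under 0.05, beside 12.5% of all genes. The difference between these contrasts was tested as an interaction, in which 0% of all genes and no member were called, with no member at an unadjusted p under 0.05, beside 3.2% of all genes. The titles' codes are spread unequally over these genotypes.

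Several complex IV and V subunits come as paralogues, 1 broadly used and 1 known from particular cells. Per kilobase of transcript, the broad form was higher in every library: the log2 ratio averaged 8.94 for Cox4i1 over Cox4i2, 6.76 for Cox6a1 over Cox6a2, 7.58 for Cox6b1 over Cox6b2, 5.62 for Cox7a2 over Cox7a1, 8.10 for Ndufa4 over Ndufa4l2 and 6.21 for Cox7b over Cox7b2. Cox4i2, Cox7a1 and Ndufa4l2 are known from pericytes and smooth muscle, and Cox6a2 from muscle and parvalbumin interneurons. Cox7a1 was at 0.97 to 1.65 CPM in control and 1.40 to 2.23 CPM in BrapcKO libraries (log2 0.48 ± 0.23, SE, adjusted p = 0.300), Ndufa4l2 at 0.66 to 1.22 and 0.99 to 1.46 CPM (0.46 ± 0.25, SE, adjusted p = 0.351) and Cox4i2 at 0.46 to 0.96 and 0.43 to 0.93 CPM. None of the 8 pericyte and smooth muscle markers was called (median 0.16 with group alone, summed 127 to 227 CPM in control and 189 to 266 CPM in BrapcKO libraries), and their part in these values was not tested. Cox6a2 was at 1.02 to 3.74 CPM in control and 0.83 to 2.10 CPM in BrapcKO libraries (-0.78 ± 0.38, SE, adjusted p = 0.308), beside summed levels of 743 to 930 and 876 to 1067 CPM for the 6 parvalbumin interneuron markers. By gene, 4 of these 6 markers were below 0 and 2 above 0 in both fits (median -0.16 with group alone, -0.21 with the title code). The part of these markers in the Cox6a2 values was not tested. All ranges overlapped between groups.

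Atp5g1, Atp5g2 and Atp5g3 encode the same mature c subunit behind different import sequences. Atp5g3 exceeded Atp5g1 by a log2 ratio of 4.02 to 4.43 in B1 and 2.83 to 2.96 in B2 libraries, and Atp5g2 by 5.75 to 7.49 and 3.08 to 3.63. The ratios of the codes did not overlap, whereas those of the groups did. Within B1, the 4 BrapcKO and 2 control ratios of Atp5g3 to Atp5g1 ran from 4.02 to 4.43 and from 4.10 to 4.22.

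**Figure D5:**
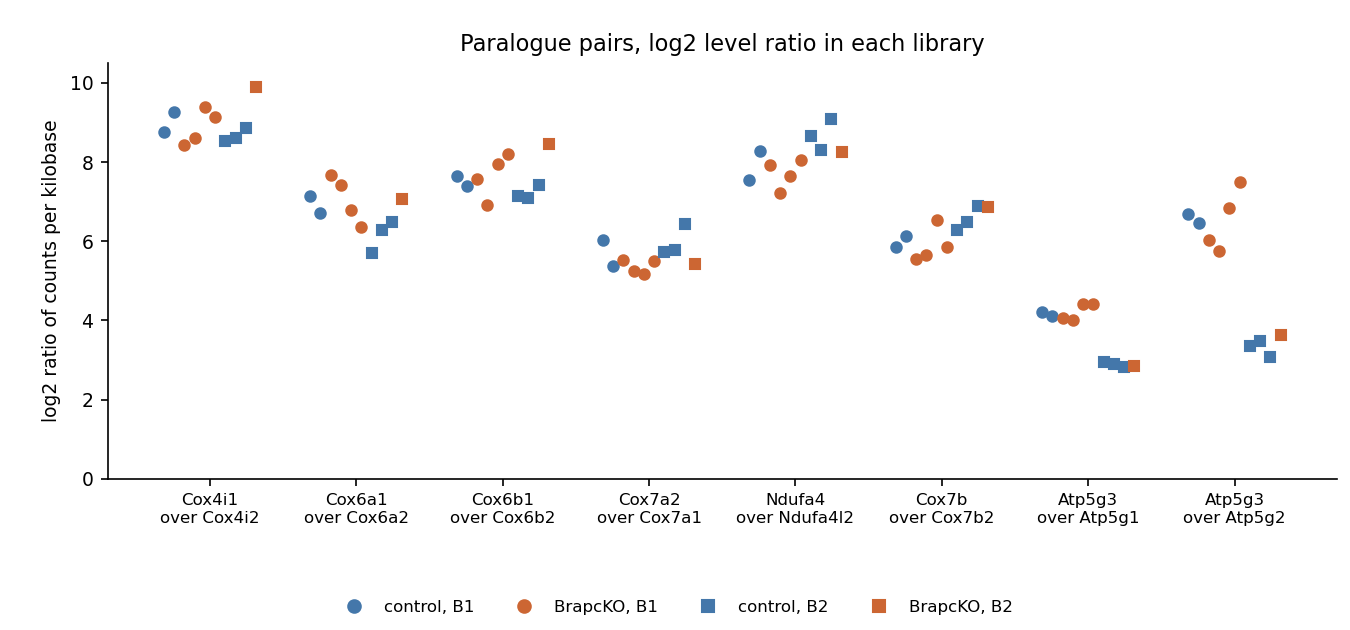
Log2 ratio of counts per kilobase of transcript (vertical axis) for 8 paralogue pairs (horizontal axis) in each library, with circles for B1, squares for B2, blue for control and orange for BrapcKO. The ratios of Atp5g3 to Atp5g1 and Atp5g2 fall into separate ranges by title code, and the groups overlap in each pair.

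Genes around the complexes showed few calls between groups. Of the 7 measured subunits encoded by mitochondrial DNA, none was called in either fit (medians 0.14 and -0.02). By title code, 1 of the 7 was called higher in B2 (mt-Co1, log2 0.70) and 4 lower (mt-Nd2, mt-Nd4, mt-Nd5 and mt-Cytb). Of 5 measured nuclear genes whose names fall outside the rule (Ndufab1, Cyc1, Cycs, Atpif1 and Usmg5), none was called between groups, and 4 were called higher in B2, with Cycs, cytochrome c, at log2 2.19. Assembly factors gave 0 calls of 18 for complex I, 0 of 6 for complexes II and III apart from the Sdhaf genes and 0 of 20 for complex IV in both fits, and 1 of 3 for complex V with the title code (Tmem242, log2 0.34 ± 0.09, SE, adjusted p = 0.0441, higher). Of 21 regulators of mitochondrial gene expression, among them Ppargc1a, Nrf1, Gabpa, Esrra and Tfam, none was called in either fit. None of 18 tricarboxylic acid cycle genes, 13 coenzyme Q synthesis genes and 6 carriers and porins was called. Of 17 glycolysis genes, Hk2, a hexokinase, was called higher in both fits (4.97 ± 1.22 CPM in control and 9.60 ± 3.20 CPM in BrapcKO, SD, n = 5 each; log2 0.94 ± 0.23, SE, adjusted p = 0.0412, and 1.07 ± 0.24, SE, adjusted p = 0.0178). Hk2 was not called when the Y-linked score was added (adjusted p = 0.279), when both score and code were added (0.166), in B1 alone (0.0573) or by limma-voom with group alone (0.0507).

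Promoters of subunit genes are known for sites of NRF1, GABP, ERR-alpha and YY1. RefSeq windows of 300 bases (GRCm38.p6, 250 before and 50 after the start site) were matched to 69 of the 86 genes and to 11160 genes of the table, and searched on both strands. The NRF1 motif was in 18 of 69 member windows (26.1%, beside 9.8% of all), the ETS motif CCGGAAG of GABP in 18 (26.1%, beside 16.7%), the ERR-alpha motif AAGGTCA in 8 (11.6%, beside 3.1%), the YY1 motif in 8 (11.6%, beside 4.3%) and CCAAT in 30 (43.5%, beside 38.4%). A match is only a match of letters. Sdhd was 1 of several members with 3 of the motifs in the window, with Atp5e, Atp5k and Ndufs6 among the others. The bases before the RefSeq start site are printed for the 3 genes called with the title code and for Sdhd, whose promoter window held 3 of the motifs. By the gene coordinates given above, the last 38 bases printed for Cox5b and the last 14 for Sdhaf3 lie inside the gene. Matches are in capitals (GRCm38.p6: Ndufb6 chr4:40279422-40279671, minus strand; Cox5b chr1:36691237-36691486, plus; Sdhaf3 chr6:6955768-6956017, plus; Sdhd chr9:50603850-50604099, minus).
Ndufb6: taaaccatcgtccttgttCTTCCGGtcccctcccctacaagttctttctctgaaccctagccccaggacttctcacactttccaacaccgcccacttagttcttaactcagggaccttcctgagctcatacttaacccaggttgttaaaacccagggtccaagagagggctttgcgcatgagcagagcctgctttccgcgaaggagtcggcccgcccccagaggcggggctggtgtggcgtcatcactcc
Cox5b: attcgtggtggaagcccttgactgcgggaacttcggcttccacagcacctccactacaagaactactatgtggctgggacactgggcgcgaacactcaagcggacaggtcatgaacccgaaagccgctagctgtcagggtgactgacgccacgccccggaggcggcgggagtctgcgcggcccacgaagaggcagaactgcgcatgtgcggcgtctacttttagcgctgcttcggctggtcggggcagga
Sdhaf3: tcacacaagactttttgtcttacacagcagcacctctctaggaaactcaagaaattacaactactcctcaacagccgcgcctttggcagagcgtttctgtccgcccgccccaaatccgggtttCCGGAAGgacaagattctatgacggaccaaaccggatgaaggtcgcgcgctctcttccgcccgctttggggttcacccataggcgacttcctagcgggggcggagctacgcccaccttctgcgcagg
Sdhd: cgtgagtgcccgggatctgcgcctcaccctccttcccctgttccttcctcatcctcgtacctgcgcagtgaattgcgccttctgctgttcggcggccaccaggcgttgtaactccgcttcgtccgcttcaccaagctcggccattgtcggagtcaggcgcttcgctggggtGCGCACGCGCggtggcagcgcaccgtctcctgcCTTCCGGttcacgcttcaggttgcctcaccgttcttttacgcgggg
The capitals mark an ETS motif in Ndufb6 and in Sdhaf3, and an NRF1 motif followed by an ETS motif in Sdhd. Other matches of these windows, the NRF1 motif of Sdhaf3 and the ERR-alpha motif of Sdhd, lie partly or wholly in the 50 bases after the start site and are not printed. Cox5b held none of the 5 motifs in its window, so the pair of genes called higher, Ndufb6 and Cox5b, shared none of them.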

How the data were processed

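Total RNA from frozen cortex was extracted with Trizol, treated with DNase and depleted of ribosomal RNA, per the labels' protocols. The deposited table holds raw read counts per gene; the submitters' processing notes name FastQC, Subread, featureCounts, DESeq2 and edgeR and the build mm10/GRCm38, without versions, and do not give the strand setting. Members and gene lists were chosen with earlier results of these data known. Symbols, coordinates and transcript lengths (median of coding transcripts) came from GENCODE M21. The counts were tested with edgeR 4.0.16 in R 4.3.3 (TMM scaling, robust quasi-likelihood fit over all 14276 genes, Benjamini-Hochberg adjustment over all genes, 0.05), first with group alone, then adding the title code. Alternatives were a Y-linked score, B1 libraries alone, genotype contrasts, DESeq2 1.42.0, limma-voom 3.58.1, other scaling, other filters and leaving out each library. The procedure was tested on simulated data. The simulations changed either the group or the title code, not both, so they do not cover a code effect spread unequally over groups. Named genes were the called members, the 3 lowest p-values and the most abundant gene per kilobase of each complex, the paralogues, and called or lowest-p genes of the other lists. Groups share no replicate numbers.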

Additional observations from a re-analysis of the deposited data

Results flagged for a closer look

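Of 102 values tested for a library far from the others of its group, 16 stood out. The usual chance rate of about 1 in 20 groups is no yardstick for this number. The values share libraries, and some genes were chosen for their gap between codes. In 14 of the 16 the library was BrapcKO 21, the only BrapcKO library of title code B2, so any wide gap between codes sets it apart. It held 55.7 CPM of Ndufb6, 148 CPM of Cox5b, 34.2 CPM of Ndufs6, 72.0 CPM of Uqcrb, 151 CPM of Uqcrh, 10.4 CPM of Atp5g2, 244 CPM of Cox8a, 160.4 CPM of Cox7b, 82.5 CPM of Atp5g1, 66.7 CPM of Cox7c, 3.01 CPM of Ndufs5 and 128 CPM of Cox5a, each above the other 4 BrapcKO libraries. Its summed complex IV level was 2091 CPM, against 1025 to 1213 CPM in the other 4, and its log2 ratio of Atp5g3 to Atp5g1 was 2.84, against 4.02 to 4.43. The other 2 values came from control 24, with 126 CPM of Sdhb, against 85.6 to 92.5 CPM in the other controls, and 170 CPM of Atp5d, against 89.6 to 104 CPM.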

How the results depend on the processing

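Counts of calls: with group alone, the title code as a term gave 2 higher and 1 lower and DESeq2 1 higher, and leaving out a library gave 0 to 1 lower (1 without control 24). With the title code as a term, DESeq2 gave 5 higher, limma-voom 0 lower, the Y-linked score as a further term 0 and 0, and leaving out a library 0 to 5 higher and 0 to 1 lower. Signs turned for Ndufb6 (0.34, DESeq2 0.35, limma-voom 0.36) and Cox5b (0.43, 0.43, 0.42) once the title code was a term. Medians turned sign too: over all members 0.12 with the title code, 0.15 with both terms, 0.091 in B1 alone and 0.014 for flox/ko against flox/wt. For complex I these were 0.12, 0.13, 0.11 and 0.027; for complex III 0.11, 0.15, 0.081 and 0.0085; for complex V 0.16, 0.18, 0.091 and 0.041; for complex IV the first 3 were 0.089, 0.16 and 0.080. Complex II went to 0.25 with both terms and -0.067 for flox/flox. Leaving out a library gave medians of -0.21 to 0.017 for complex I and -0.37 to 0.0056 for complex V (without BrapcKO 21 and without control 24), and of -0.045 to 0.15 for complex II (the same libraries). Over all members it gave -0.22 to -0.0005 and for complex III -0.21 to -0.0066 (the same libraries), and for complex IV -0.29 (without control 08) to -0.11 (without BrapcKO 05). Without transcript length the ratios were 6.20 for Cox7a2 to Cox7a1, 7.08 for Ndufa4 to Ndufa4l2, 7.10 for Cox7b to Cox7b2 and 1.78 for Atp5g3 to Atp5g1, with the same order of levels. The 57 members called higher in B2 became 38 in the controls alone, 47 with upper quartile scaling, 60 with DESeq2, and 43 to 58 when a library was left out. The cause of these changes was not tested. The tests that carry the title code in DESeq2 or limma-voom, those that leave out a library with it, and those of the code itself were chosen after the data were seen. No paired analysis was possible because the groups share no replicate number. The main limits are 5 libraries a group, codes spread unequally over groups and genotypes, and the low counts of the tissue-restricted paralogues and, in B1, of Ndufs5 and Atp5g2. Sex, as read from Y-linked genes, was also spread unequally over groups.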

Other observations

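Cytosolic ribosomal protein genes, a list chosen after the data were seen because many have pseudogenes, also separated by title code: 73 of 76 were called higher in B2 and none lower (edgeR), with a median log2 difference of 2.73. Between groups none of the 76 was called, with a median of -0.97 with group alone and 0.09 once the title code was added. Over all genes, transcripts under 1000 bases had a median log2 difference between codes of 0.33, beside -0.02 for all lengths together. Usmg5, a small ATP synthase subunit whose name falls outside the rule, had a log2 difference between codes of 6.04.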
